A study of Mus musculus with 12 samples.

Results

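The RNA contacts of Puf60 and Rbm38 were mapped in mouse neuroblastoma cells of the N2A line by iCLIP, in which ultraviolet light joins a protein to the RNA it touches and the joined RNA is sequenced. This account covers 6433 clusters, the short stretches of genome that the authors listed as covered by CLIP reads, out of 36227 listed for Puf60 with its exon 5 and 124941 in all 3 tables. The clusters were chosen by listing in the authors' deposited tables: a cluster of the table with exon 5 was taken where its centre lay in the body of exactly 1 gene, a protein-coding one, and where it overlapped by at least 1 nt, on the same strand, a cluster of Puf60 without exon 5 and no cluster of Rbm38. They are called Puf60-only clusters here, and they lay in 3000 genes. Every group came from N2A cells carrying a Flag-tagged protein, given 1 µg/ml doxycycline, crosslinked with 150 mJ/cm2 and precipitated with anti-Flag antibody: Puf60 including exon 5 (3 libraries, 48 h of induction), Puf60 lacking exon 5 (3 libraries, 24 h) and Rbm38 (3 libraries, 24 h). Each protein had 1 size-matched input library, RNA of the same gel range taken without precipitation, at 24 h. The input of Puf60 with exon 5 was thus induced for 24 h and its CLIP libraries for 48 h, so isoform and induction time cannot be told apart. Whether each line was 1 clone, and whether the cells kept their own Puf60, was not given in the sources used here.

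Puf60, a splicing factor and relative of U2af2, binds pyrimidine-rich RNA, the C and U tracts that lie before the 3′ end of introns, and helps the U2 particle to settle there early in spliceosome assembly. Rbm38 is an RNA-binding protein of the p53 response that favours other, GU-rich, sequence. An exon that can be kept or skipped, such as exon 5 of Puf60, gives a cell protein isoforms whose sites on RNA can then be compared.

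The sequences show what such a site looks like where sequence could be read. The sequences used here were RefSeq's promoter windows on GRCm38.p6 (mm10), 250 nt before to 50 nt after an annotated start, and 31 of the 6433 clusters lay wholly in one on the matching strand. Printed below are all 9 of these that were enriched for both isoforms in the authors' deposited tables, then 5 of the 20 that were enriched for neither, picked after their values were seen to show both pyrimidine-rich and pyrimidine-poor ones. Each is written 5′ to 3′ in the sense of the cluster, as DNA, and capitals mark runs of at least 5 bases that are all C or T. Where a cluster lay more than 1000 nt into its gene and had at least 30 bases before an alternative start, the bases before that start are shown whole; elsewhere only the 30 bases richest in pyrimidine are shown.
Prpf40b, chr15:99303151-99303283, plus strand: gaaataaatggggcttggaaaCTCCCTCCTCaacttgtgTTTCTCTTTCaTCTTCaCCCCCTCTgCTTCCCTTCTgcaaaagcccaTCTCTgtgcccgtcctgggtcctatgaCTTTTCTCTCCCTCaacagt
Ncoa6, chr2:155440786-155440835, minus strand: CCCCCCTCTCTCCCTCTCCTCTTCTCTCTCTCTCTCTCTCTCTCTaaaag
Rfx3, chr19:28011186-28011235, minus strand: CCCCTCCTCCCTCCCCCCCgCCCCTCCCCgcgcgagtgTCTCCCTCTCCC
Nt5dc2, chr14:31134701-31134735, plus strand: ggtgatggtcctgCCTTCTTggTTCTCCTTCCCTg
R3hdm2, chr10:127380656-127380685, plus strand: CCTTTCTTCCCCTTCTgCTTCTCCCCCTCC
Fubp3, chr2:31572660-31572689, plus strand: gaccccgcctcacagacgctgCTTTCCCCC
Pcbp2, chr15:102470601-102470630, plus strand: CCTCCgcccgcccgcccgCCCTCCgccgcc
Ywhag, chr5:135934426-135934455, minus strand: TCTTCggTTTCCTTCTTTCCagccgatcct
Tmsb10, chr6:72958382-72958411, minus strand: cgccgCTCTTTTgTCTCTTgctgcagcaac
H3c4, chr13:23575767-23575796, plus strand: TTCTCaTTCCCTgagaCTTCTCTCTTTTTC
H3c6, chr13:23562356-23562385, minus strand: cccgTTTCTCCTCCTCTgcaatggctcgta
Set, chr2:30066451-30066480, plus strand: CCCTCgccgggaagaggaggaggtggtggt
Sfpq, chr4:127021317-127021346, plus strand: cgcagcttgtgtcgtccgccattttgtgct
H3c13, chr3:96268651-96268680, plus strand: taagtatggccacttggcgtctgcaagccg

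Most of the enriched sequences held a pyrimidine tract. Over the 9 clusters of this kind enriched for both isoforms, the median share of C and T was 72%, between 41% in Tmsb10 and 92% in R3hdm2, and the longest unbroken run of C or T had a median of 13 bases. The run reached 45 bases in Ncoa6, a coactivator of nuclear receptors, 19 in Rfx3, a transcription factor of cilium genes, and 14 in Prpf40b, a splicing factor. Over the 20 clusters enriched for neither isoform, the median share was 60% and the median longest run 8 bases. A run of 8 or more bases, each C or T, was searched on the strand of the cluster: 7 of the 9 held one, as did 10 of the 20, against 19.8% of the 127578 stretches of 50 nt in all promoter windows of protein-coding genes. Some clusters are longer than 50 nt, which gives them more room for a run. These few clusters lie near annotated starts by the way they were found, so they are examples and not a sample of the 6433.

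In the genes with an internal start, the tract stood far from the 5′ end. The authors' deposited tables gave the Prpf40b cluster a log2 fold over input of 4.57 with exon 5 and 4.78 without, 8150 nt into the gene. The Ncoa6 cluster had 4.02 and 4.45 in the authors' deposited tables, 33100 nt into the gene, and ran from -52 to -3 relative to an annotated start (position 0). Rfx3 had 3.91 and 3.98 at 3458 nt, and Nt5dc2, a gene of the 5′-nucleotidase family, 3.23 and 4.25 at 3637 nt, both in the authors' deposited tables. These 4 were taken from the clusters enriched for both isoforms, so that they are high in both tables follows from the choice. Other clusters of the 31 lay as far into their gene and were enriched for neither, such as those in Set, a histone chaperone gene (4480 nt), and Gpx4, a glutathione peroxidase gene (6510 nt). A pyrimidine tract was also found without enrichment. The H3c4 cluster, in a histone gene, was 76% pyrimidine with a run of 16 bases and had 0.26 and -0.42 in the authors' deposited tables, and the Set cluster was 22% pyrimidine and had 0.03 and 0.16. The Tmsb10 cluster, in turn, was enriched for both at 41% pyrimidine, with 0.46 and 0.80 in the authors' deposited tables. Exons and introns were not analysed here, so it is not said which of the clusters lie in an intron.

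The choice of the 6433 clusters used only which tables list them. How clusters came to be listed is not stated, but listing and fold rest on the same CLIP libraries, so the folds below are a description with no test. The authors' deposited tables give 1 log2 fold, p-value and adjusted p-value per cluster and no value per library. The spread between the 3 CLIP libraries and the depth are therefore unknown, and intervals on shares are 95% Wilson intervals that cover counting error only, over clusters that are not independent. A cluster is called enriched where its deposited adjusted p is under 0.05. Of 15 genes fixed as markers of sympathetic neuroblasts, 7 had a cluster in at least 1 table, among them Phox2a and Hand2, and 3 held a Puf60-only cluster, none of them enriched for both isoforms. Of 12 markers of other cell types, 6 had a cluster in some table and 0 held a Puf60-only cluster. iCLIP lists sites of contact and not levels, so an unlisted marker says nothing of its expression.

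Most Puf60-only clusters were enriched for both isoforms. By the authors' deposited tables, 4228 of 6433 were enriched with exon 5 (65.7%, 64.6% to 66.9%), where the whole table has 39.1%, and 4251 were enriched without exon 5 (66.1%, 64.9% to 67.2%), where the whole table has 36.1%. Since the same libraries listed and scored them, nothing is read from that distance. The 4011 enriched for both made 62.4% (61.2% to 63.5%) and lay in 2253 genes. Another 217 (3.37%) were enriched with exon 5 alone, 240 (3.73%) without exon 5 alone, and 1965 (30.5%, 29.4% to 31.7%) for neither. Of the 8891 clusters listed for all 3 proteins in a single coding gene, 34.0% were enriched for both isoforms and 53.1% for neither. The clusters enriched for 1 isoform alone were mostly weak ones: the 217 had medians of 1.10 with exon 5 and 0.38 without in the authors' deposited tables, and the 240 had 0.41 and 1.07. Some had higher folds, and the call did not always follow the fold. A cluster in Agxt had 2.28 with exon 5 and 2.24 without, and was enriched with exon 5 alone.

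**Figure D1:**
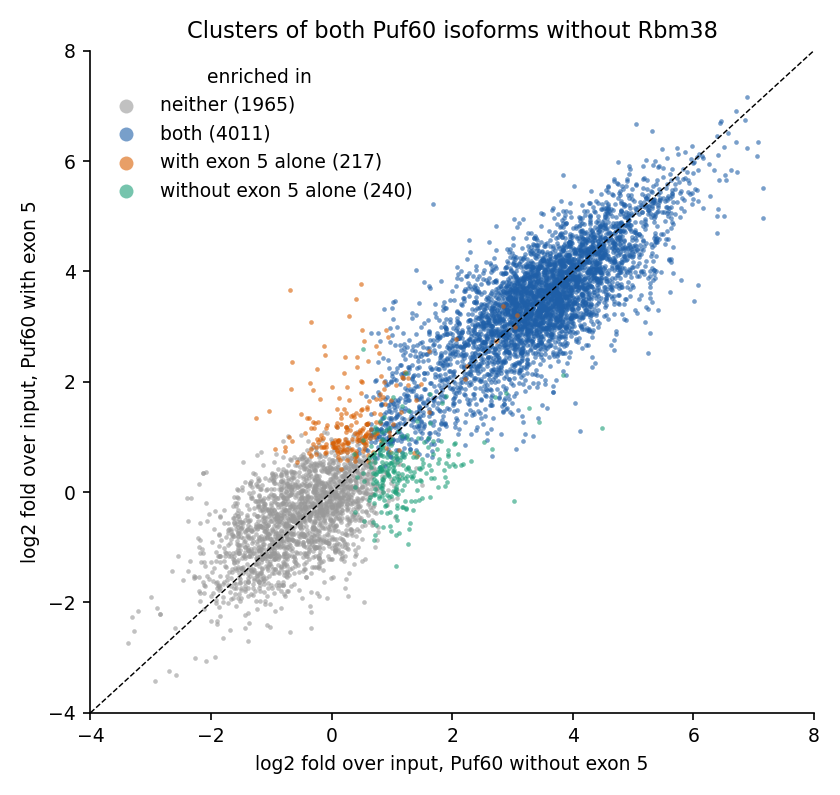
Log2 fold over input of each Puf60-only cluster without exon 5 (horizontal axis) and with exon 5 (vertical axis), as the authors' deposited tables give it. Colours show for which isoform the cluster was enriched, and the dashed line marks equal values. The 4011 clusters enriched for both form a cloud around 3.48 on both axes, and the 1965 enriched for neither a second cloud just below 0.

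The folds fell into a low and a high group. Over all 6433 clusters the median log2 fold in the authors' deposited tables was 2.65 with exon 5 (quartiles 0.12 and 3.72) and 2.57 without (0.08 and 3.74). Between 1.5 and 2 lay 3.31% of the clusters, against 8.55% between -0.5 and 0 and 12.8% between 3 and 3.5, with exon 5. The clusters enriched for both had medians of 3.48 and 3.48, and those enriched for neither -0.43 and -0.50. Clusters listed for all 3 proteins had lower medians, 0.38 with exon 5 and 0.24 without, and those listed with exon 5 only had -0.26. Among enriched clusters alone the medians with exon 5 were 3.42 for Puf60-only clusters, 2.09 for all 3 proteins and 2.94 with exon 5 only.

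**Figure D2:**
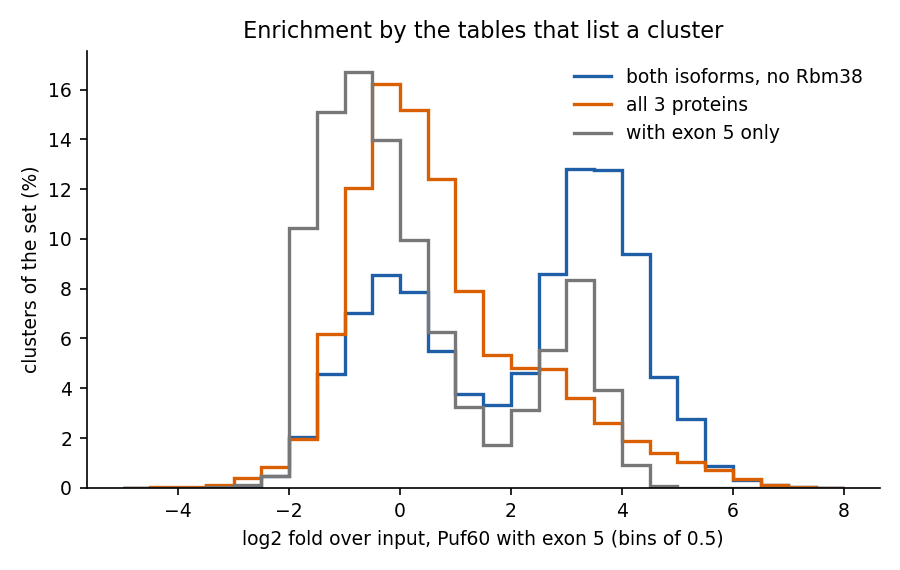
Share of clusters (vertical axis, %) by log2 fold over input with exon 5 (horizontal axis, bins of 0.5) for Puf60-only clusters, clusters of all 3 proteins and clusters listed with exon 5 only. Puf60-only clusters have 12.8% between 3 and 3.5, where clusters of all 3 proteins have 3.62% and clusters with exon 5 only 8.34%.

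The high folds of Puf60 in protein-coding genes were largely at Puf60-only clusters, but the very highest were not. These clusters were 23.1% of the 27809 clusters with exon 5 in a single coding gene. They made 1156 of the 1749 with a log2 fold above 4 in the authors' deposited table (66.1%, 63.8% to 68.3%) and 264 of the 464 above 5 (56.9%). Of the 69 clusters above 6 they made 28, and clusters that Rbm38 also had made the other 41 (59.4%, 47.6% to 70.2%). Clusters listed with exon 5 only were 97 of those above 4, 1 of those above 5 and 0 above 6.

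The strongest single sites were in genes of many functions. Ranked by the lower of the 2 folds, the first was in Taok3, a kinase of the stress-activated MAP kinase pathways, with 7.16 with exon 5 and 6.90 without in the authors' deposited tables (chr5:117273901-117274100, 1100 nt from the gene's 3′ end). The second was in Cnot2, a subunit of the CCR4-NOT complex that removes poly(A) tails, with 6.75 and 6.87 (chr10:116535586-116535785, 46214 nt from the 5′ end). The third was in Six2, a homeobox transcription factor, with 6.92 and 6.71 (chr17:85684736-85684835). At each of these sites both isoforms were far above their own input. Cbl, a ubiquitin ligase of receptor tyrosine kinases, had 6.50 and 6.57 (chr9:44144386-44144485, 1460 nt from the 3′ end), and Top2b, a DNA topoisomerase of neurons, 6.73 and 6.45 (chr14:16416801-16416900) in the authors' deposited tables. Among the widest clusters of the set were those in the splicing factor genes Prpf38b (400 nt, 4.07 and 4.51) and Zranb2 (350 nt, 4.14 and 4.19). These widths are those with exon 5. Both clusters were narrower without exon 5, so their folds covered different stretches.

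Further genes were close behind. In the authors' deposited tables Bcat1, which starts the breakdown of branched-chain amino acids, had 6.45 with exon 5 and 6.40 without, and Pus10, a pseudouridine synthase, 6.35 and 6.70. Stxbp6, which binds the SNARE proteins of vesicle fusion, had 6.34 and 7.07, and Setd1b, a histone methyltransferase, 6.24 and 6.89. Slc38a1, a glutamine transporter, had 6.10 and 7.06, the widest distance between isoforms of the 14 genes plotted. Its cluster started at 96609386 with exon 5 and at 96609336 without, so its folds covered different stretches. Ache, acetylcholinesterase, had 6.13 and 6.10 at 554 nt from its 5′ end, and Csmd1, a very long gene of 1642848 nt, had 6.07 and 6.06. Adamts6 (6.12 and 6.41) and Cyb5r3 (6.08 and 6.15) came near these.

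**Figure D3:**
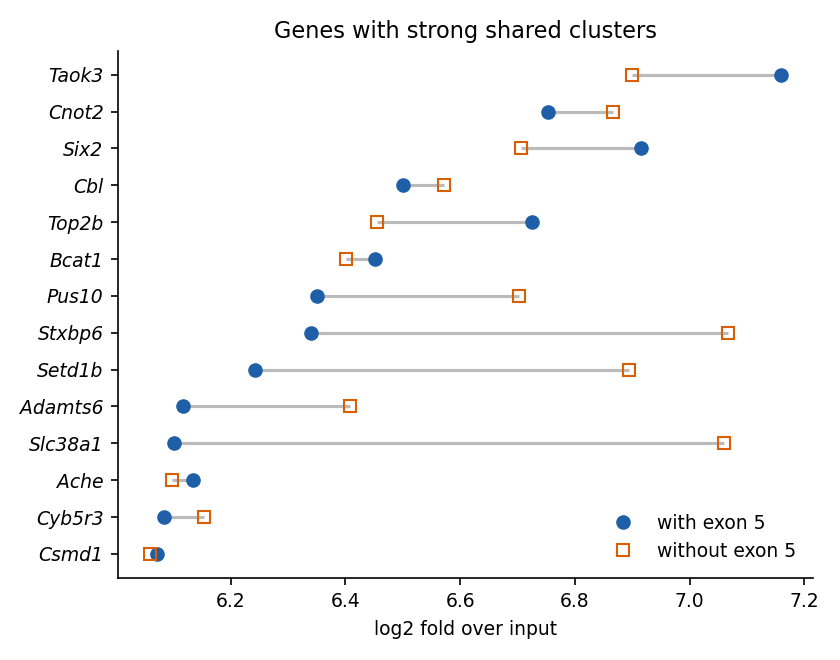
Log2 fold over input (horizontal axis, starting near 6) with exon 5 (filled circles) and without exon 5 (open squares) for the strongest Puf60-only cluster of 14 genes among those ranked highest by the lower value. The first, Taok3, has 7.16 and 6.90, and the last, Csmd1, has 6.07 and 6.06.

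At these clusters, chosen because both isoforms list them, the folds of the isoforms were close. The choice left out the clusters in a single coding gene listed with exon 5 only (9754) or without exon 5 only (11505). Part of the closeness may therefore follow from the choice. Across the 6433 clusters the values of the authors' deposited tables had a Pearson correlation of 0.939 and a Spearman correlation of 0.919, given as a description since all clusters come from the same libraries. The correlation was lower within a class, with a Pearson value of 0.802 over the clusters enriched for both and 0.564 over those enriched for neither. The difference, with exon 5 minus without, had a median of 0.02 and an SD of 0.72 over clusters, and the central 95% of clusters lay between -1.39 and 1.46. In 84.8% of clusters the isoforms were within 1 log2 unit of each other. Start and end were identical in both tables for 4522 clusters (70.3%), and in these the median difference was 0.01.

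Differences over 2 log2 units were seen in 72 clusters (1.12%), of which 45 were higher with exon 5 and 27 lower. In 42 of the 72 the start or end differed between the tables, so the folds covered different stretches, against 1911 of all 6433. The 30 with identical coordinates were 19 higher and 11 lower. Among clusters with the same start and end in both tables, that in Eif3c, a subunit of translation initiation factor 3, had 2.64 with exon 5 and -0.12 without in the authors' deposited tables (chr7:126547636-126547685), and that in Armh3 1.46 and -1.04. Both, and Hivep3 below, were enriched with exon 5 alone. Stx16, a SNARE of the Golgi, had 3.32 and 0.87, Prkdc, the catalytic subunit of DNA-dependent protein kinase, 3.46 and 1.06, and Hivep3, on the strand opposite to the gene, 2.94 and 0.50 in the authors' deposited tables.

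In the other direction Zc3h14, a poly(A)-binding protein gene, had -0.15 with exon 5 and 3.03 without in the authors' deposited tables (chr12:98757151-98757200). Fasn, fatty acid synthase, had 1.02 and 3.35, and Pnisr, an arginine- and serine-rich nuclear protein gene, 0.93 and 3.17. Ndufc1, a subunit of respiratory complex I, had -0.94 and 1.27, so that it and Zc3h14 were enriched without exon 5 alone. Eif3a, another subunit of initiation factor 3, had 1.05 and 3.20, and Thrap3, a splicing-associated factor, 2.58 and 4.69. With no value per library these single differences have no replicate check, and the 48 h and 24 h inductions were not separated from the isoform.

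Puf60 itself was among the genes, and Rbm38 held 0 Puf60-only clusters. The Puf60 gene carried 10, of which 5 were enriched for both isoforms, 4 with exon 5 alone and 1 without exon 5 alone. The strongest, at chr15:76079536-76079585, had 4.88 with exon 5 and 4.79 without in the authors' deposited tables. At the other 9 the values lay between 0.35 and 2.57 with exon 5 and between -0.22 and 2.83 without, so these were weaker than the strongest. They were also less alike, but at most of the 9 the start or end differed between the isoforms. The folds there covered different stretches, whereas the strongest had the same coordinates for both. The transgene encodes Puf60 as well, so reads of its RNA and of the gene's own RNA were not told apart.

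Clusters gathered in some genes but most genes had 1. Of the 3000 genes, 1783 (59.4%) had a single Puf60-only cluster, 933 had 2 to 4, and 284 (9.47%) had 5 or more. In 1680 genes (56.0%) every such cluster was enriched for both isoforms, and in 625 (20.8%) every one was enriched for neither. Between neighbouring clusters enriched for both in 1 gene, the distance had a median of 3250 nt over 1712 pairs, and 19.2% of pairs were within 500 nt. The genes were long: their median length was 35584 nt, 41244 nt where a cluster was enriched for both and 22861 nt where all were enriched for neither, against 17146 nt over all 21900 protein-coding genes. Longer genes offer more sequence to be bound, and no adjustment for length was made.

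The genes with the most clusters enriched for both isoforms held 11 to 21 each. Huwe1, a very large ubiquitin ligase, had 21 of 27, with folds from -0.89 to 5.00 with exon 5 and from -0.38 to 4.85 without in the authors' deposited tables. Rbm26, which takes part in nuclear RNA surveillance, had 17 of 17, from 1.87 to 5.56 and from 1.08 to 4.47. Pcm1, a scaffold of centriolar satellites, had 14 of 18, and Eif3a 14 of 20. Herc1, another giant ubiquitin ligase, had 13 of 20, and Fubp1, a regulator of Myc transcription and of splicing, 13 of 15. Bclaf1, a splicing-associated factor, had 12 of 13, Rims2, a scaffold of the presynaptic release site, 11 of 16, and Myef2, an RNA-binding repressor of myelin genes, 11 of 11. Per length, Fubp1 had 4.92 clusters enriched for both per 10 kb and Eif3a 4.73, against 0.226 in Rims2. The 10 genes with the most such clusters held 139 of the 4011 (3.47%).

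In other genes many clusters were listed and few enriched. Unc5c, a netrin receptor, had 37 Puf60-only clusters with 29 enriched for neither isoform, and Efna5, an ephrin, 25 with 24 enriched for neither. Trps1, a transcription factor, had 23 of 27 enriched for neither, and Map1b, a microtubule protein of axons, 13 of 14. In Efna5 the medians were -0.60 with exon 5 and -0.59 without in the authors' deposited tables, and in Map1b -0.24 and -0.69. Both genes carried many Rbm38 clusters elsewhere, 247 in Efna5 and 278 in Map1b. The lowest mean folds of all lay in Rap1a, a small GTPase (-3.42 and -2.92), Wdcp (-2.74 and -3.37), Ticrr, needed to start DNA replication (-3.24 and -2.70), Polr3e, a subunit of RNA polymerase III (-3.32 and -2.57, antisense to the gene), and Dpep2 (-2.52 and -3.27) in the authors' deposited tables.

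Absence of Rbm38 from a cluster did not mean absence from the gene. For the count per gene, only Rbm38 clusters whose centre lay in exactly 1 gene body were used, on either strand. By that count 630 of the 3000 genes (21.0%) had none and 2096 (69.9%, 68.2% to 71.5%) had an enriched one elsewhere in their body. The distance from a Puf60-only cluster to the nearest Rbm38 cluster had a median of 900 nt, and 696 clusters (10.8%) abutted one. For clusters enriched for both isoforms the median was 2050 nt, and for those enriched for neither 250 nt. At the border of the rule, the 696 abutting clusters had medians of 0.46 with exon 5 and 0.51 without in the authors' deposited tables. Just outside it, the 1375 clusters wider than 50 nt that shared exactly 50 nt with Rbm38 had 0.99 and 0.97. Most clusters were narrow: 77.8% were 50 nt wide, the step of the grid, and of these 59.2% were enriched for both, against 84.9% of the 73 clusters of 200 nt or more.

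Enriched and unenriched clusters lay in different places in their genes; this too is a description with no test. Of the 6433 clusters, 5211 lay in genes whose strand the RefSeq promoter table gives, and 4840 of these (92.9%) were on the gene's own strand. Of these sense clusters 17.4% (16.4% to 18.5%) were within 2000 nt of the gene's 3′ end, which in most genes includes the 3′ untranslated region. The share was 9.63% (8.63% to 10.7%) for clusters enriched for both isoforms and 33.7% (31.3% to 36.1%) for those enriched for neither. Clusters of all 3 proteins had 39.0%, and 22.7% where both isoforms were enriched. A low share was not particular to Puf60-only clusters: enriched clusters listed with exon 5 only had 7.84%, and those listed without exon 5 only 9.49%. Within 2000 nt of the 5′ end lay 7.37% of the clusters enriched for both and 10.6% of those enriched for neither.

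With the gene body cut into 10 equal steps, clusters enriched for both isoforms were spread over the whole body, from 5.54% in the second step to 14.0% in the last. Those enriched for neither put 37.3% in the last step and 11.9% in the first, with 4.10% to 9.35% in each step between. Clusters of all 3 proteins put 38.6% in the last step. The classes also differed in gene length (a median of 43492 nt over sense clusters enriched for both and 34612 nt for neither), and the part of length in the positions was not tested.

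**Figure D4:**
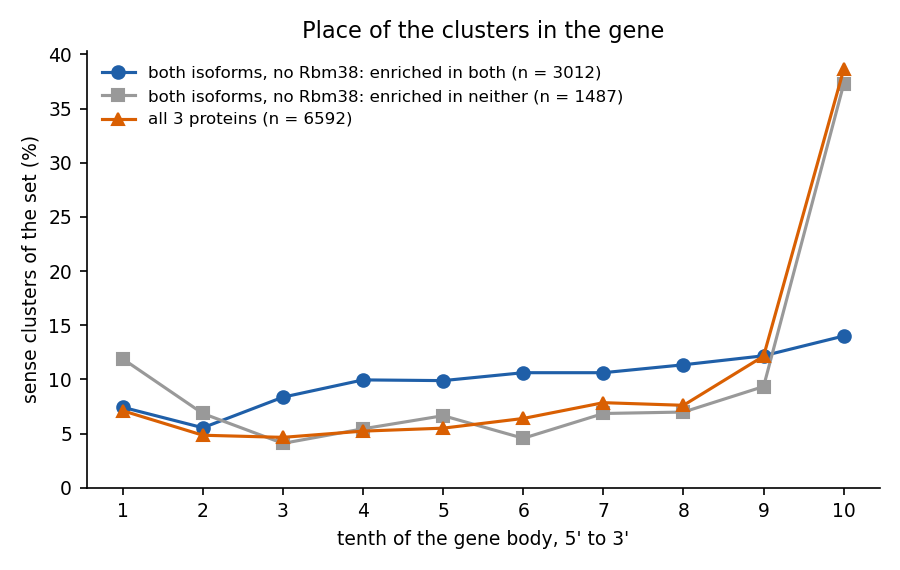
Share of sense clusters (vertical axis, %) in each of 10 equal steps of the gene body from the 5′ to the 3′ end (horizontal axis), for Puf60-only clusters enriched for both isoforms, Puf60-only clusters enriched for neither, and clusters of all 3 proteins. In the last step the shares are 14.0%, 37.3% and 38.6%.

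Of all 21900 protein-coding genes 13.7% held a Puf60-only cluster, and 36.4% of the 8231 with a cluster in any table. Of 32 genes of 3′ splice site recognition, 16 held one (55.2% of those in any table), and 54 of their 75 clusters were enriched for both isoforms (72.0%, 61.0% to 80.9%, against 62.4% over all 6433). U2af2, the large subunit of the factor that binds the same kind of tract as Puf60, had 5 of 5, from 1.80 to 5.28 with exon 5 and from 3.07 to 6.08 without in the authors' deposited tables. Hnrnpc, which competes with U2af2 for uridine tracts, had 5 of 5, the strongest at 5.09 and 5.51. Sf3b3, a subunit of the U2 particle, had 9 of 9, and Rbm39, another U2af2 relative, 8 of 9. Sf1, which recognises the branch point, had 4 of 11, and both clusters of the helicase gene Dhx15 were enriched for neither.

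The list of SR proteins, which promote exon inclusion, also held other genes. Among these were SR-related proteins such as Srrm3, Srrm4, Scaf8 and Son, and the kinases Clk1, Clk4, Srpk1 and Srpk2. The whole list had 72 of 94 clusters enriched for both isoforms (76.6%), in 24 of 32 genes (77.4% of those in any table). Shares differed between the Srsf genes, with 1 of 6 clusters in Srsf3, 2 of 5 in Srsf10 and 5 of 7 in Srsf7. The highest in the authors' deposited tables were in Srrm3 (5.43 with exon 5 and 5.65 without) and Srrm4 (4.90 and 5.34), which drive neuronal microexons, in Scaf8 (5.34 and 5.62), which couples transcription to RNA processing, and in Son (4.73 and 4.82), a scaffold of nuclear speckles. Srsf11 and Srrm1 had 6 of 6 and 7 of 7 enriched for both. For hnRNP genes, whose proteins often oppose SR proteins, it was 77 of 142 (54.2%, 46.0% to 62.2%), in 27 of 34 genes (79.4% of those in any table), with Pcbp4 at 4.34 and 4.41 and Hnrnpr at 4.75 and 4.16. Among neuronal and tissue-specific splicing regulators it was 66 of 99 (66.7%), with Qk at 5.29 and 5.46 and Mbnl1, a splicing factor of muscle and brain, at 5.09 and 5.49 in the authors' deposited tables.

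Further lists cover other steps of RNA processing. Genes of RNA decay and nuclear surveillance had the highest share of the 16 lists with all genes kept, 65 of 79 (82.3%, 72.4% to 89.1%), with medians of 3.23 with exon 5 and 3.15 without in the authors' deposited tables. Besides Cnot2, they included Smg6 (6.27 and 5.97) and Smg1 (5.49 and 4.99), of nonsense-mediated decay, and Pan3 (5.33 and 5.22), of deadenylation. Of cleavage and polyadenylation genes, 33 of 47 clusters were enriched for both (70.2%), with Cstf2, which binds downstream of the cleavage site, at 4.45 and 4.49. RNA helicase genes had 28 of 51 (54.9%). Dhx9 had 4.86 and 3.87 there, and Ddx46, a helicase of U2 particle assembly, 3.99 and 4.45. The Dhx9 cluster ended at 153468985 with exon 5 and at 153469035 without, so its folds covered different stretches.

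Among genes outside RNA processing, those of synapses and ion channels had 58 of 72 clusters enriched for both isoforms (80.6%, 70.0% to 88.0%). Cacng3, an auxiliary subunit of AMPA receptors, had 5.51 with exon 5 and 7.17 without, and Rims2 5.32 and 5.46 in the authors' deposited tables. The Cacng3 cluster ended at 122691500 with exon 5 and at 122691650 without, so its folds covered different stretches. Protein kinases and phosphatases had 60 of 85 (70.6%), with Taok2 at 6.06 and 5.57. Ubiquitin ligases and deubiquitinases had 79 of 113 (69.9%), with Usp48 at 5.69 and 5.72. Chromatin regulators had 74 of 108 (68.5%), with Ezh2, the methyltransferase of Polycomb repression, at 5.42 and 5.78 and Kdm5c, a histone demethylase, at 5.17 and 5.20 in the authors' deposited tables. Sympathetic neuroblast transcription factors had 22 of 37 (59.5%), with Meis1 at 5.09 and 5.85, and genes of the centrosome and microtubules 62 of 106 (58.5%), with Dctn1, a subunit of dynactin, at 5.44 and 5.31.

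The lowest shares were in genes of axon guidance, where crowded genes set the value, of ribosomal proteins and of oxidative phosphorylation. Axon guidance and adhesion genes had 47 of 105 clusters enriched for both (44.8%, 35.6% to 54.3%), and 37 of the 105 lay in Unc5c (8 enriched for both) and 25 in Efna5 (1 enriched for both). Without these, a choice made after seeing the data, it was 38 of 43 (88.4%, 75.5% to 94.9%). Over the whole list, Unc5c and Efna5 included, 21 of the 23 genes with a Puf60-only cluster had one enriched for both. Cytosolic ribosomal protein genes had 25 of 65 (38.5%, 27.6% to 50.6%), with Rps9 at 4.04 with exon 5 and 4.11 without and Rpl7a at 3.65 and 3.67 in the authors' deposited tables. Nuclear-encoded genes of oxidative phosphorylation had 9 of 48 (18.8%, 10.2% to 31.9%), with medians of -0.21 and -0.11. By the lower of the 2 folds the highest were in Atp5g1, a subunit of ATP synthase, with 3.66 and 3.98, and Cox4i1, a subunit of cytochrome oxidase, with 3.19 and 3.12; Atp5b, another ATP synthase subunit, had 5.22 with exon 5 but 1.68 without in the authors' deposited tables. Clusters within a gene share its RNA, so a few crowded genes weigh heavily in each list. With the 2 most crowded genes of each list left out in the same way, chromatin regulators had 66 of 78 (84.6%), 3′ splice site genes 45 of 54 (83.3%), ribosomal protein genes 37.5% and oxidative phosphorylation genes 23.7%.

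**Figure D5:**
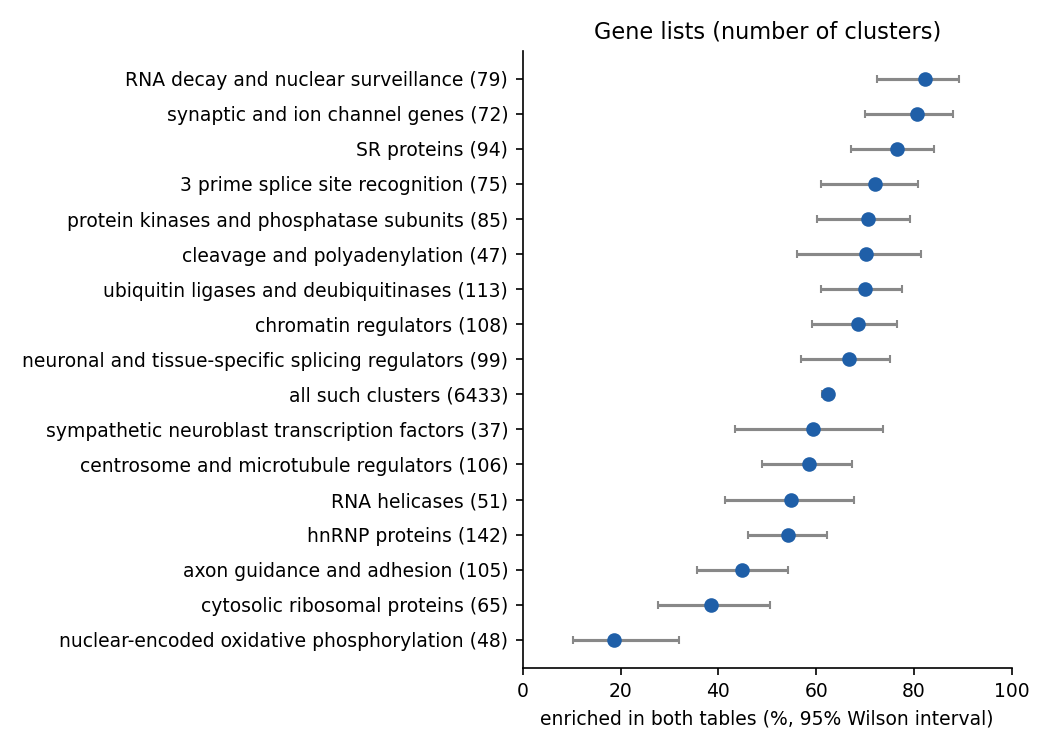
Share of Puf60-only clusters enriched for both isoforms (horizontal axis, %) in 16 gene lists and over all 6433, with 95% Wilson intervals for counting error and the number of clusters in brackets. The shares run from 18.8% for oxidative phosphorylation genes to 82.3% for genes of RNA decay and nuclear surveillance; the 44.8% of axon guidance genes is 88.4% without Unc5c and Efna5.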

How the data were processed

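Per the labels, iCLIP with anti-Flag antibody gave 3 CLIP libraries for each of 3 tagged proteins, each set with 1 input of matched size. TopHat and edgeR, without versions, and the builds NCBIM37 and mm10 are named per the submitters' processing notes, with no role given; cluster calling, use of the random bases against duplicates and pooling of replicates are not stated there. For each protein the table that the authors deposited holds a log2 fold per cluster, read here as CLIP over input (the header gives no direction), and a p-value and adjusted p-value, per the file headers.

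Starts of clusters, taken modulo 50 nt, are 0 or 35, which was read as the plus and the minus strand: offset 0 holds 92.5% of clusters in plus-strand genes and offset 35 holds 93.2% in minus-strand genes. Gene bodies (49997) and strands came from RefSeq on GRCm38.p6, the same build as mm10; 2411 of the 3000 genes were found in the promoter table. Coordinates are 1-based. Overlap needed 1 nt on the same strand, and where several clusters without exon 5 overlapped, the largest overlap (then the higher fold) gave the partner value; 117 clusters share a partner. Overlaps, gene assignment and Benjamini-Hochberg adjustment were tested on simulated data. The members and gene lists were chosen with earlier results of these data known. Named genes are the 15 with the highest lower fold, the 10 with most clusters enriched for both isoforms, up to 4 per list, 6 per direction of difference, the 5 lowest, the 3 widest, Puf60 and Rbm38; 67 clusters in predicted genes were left out of the ranking, and other genes named were chosen after their values were seen. Some genes that this rule names are not reported here. Alternatives covered the threshold, the overlap and strand rule, the gene rule and the distance to Rbm38. Python 3.11.15 and pandas 2.3.3 were used. The planned sequence content of all clusters was not computed, since it needs a genome, which was not used here; promoter windows took its place.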

Additional observations from a re-analysis of the deposited data

How the results depend on the processing

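The number of Puf60-only clusters was 6433 and lay between 4531, with no Rbm38 cluster within 200 nt, and 6683, with 50% of the cluster covered. The counts enriched with exon 5 (4067 to 4404), without exon 5 (4042 to 4370) and for both (2904, of the 4522 with identical coordinates, to 4144) stayed within 1.5 times the main count under the alternatives tried. For the count enriched for both, 2 alternatives were chosen after seeing the data: sense clusters alone gave 3012 of 4840, and leaving out clusters whose fold and p-value 10 or more clusters share gave 3636 of 4664. The median difference between isoforms was 0.02, and 0.000127 with 1 cluster per gene. The share near the 3′ end was 17.4% within 2000 nt, 9.46% within 1000 nt, 31.9% within 5000 nt, and 19.0% with 1 cluster per gene; the first 2 changes follow from the distance itself. No paired analysis was possible because the tables give no value per library, and leaving out a replicate was not possible for the same reason. Many clusters share 1 pair of fold and p-value with another (73.6% of these with exon 5), and how the p-value depends on reads is not given in the sources used here.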

Other observations

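Some strong Puf60-only clusters lay, by the strand read from their starts, on the strand opposite to the only annotated gene at their place. Of the 5211 clusters in genes with an annotated strand, 371 (7.12%, 6.45% to 7.85%) were antisense, and 247 of these (66.6%, 61.6% to 71.2%) were enriched for both isoforms, against 62.2% of sense clusters. Their medians in the authors' deposited tables were 4.03 with exon 5 and 4.02 without, against 3.43 and 3.41 for sense clusters enriched for both. The 247 lay in 229 genes, and 137 of these genes had no sense cluster of Puf60 with exon 5 at all. The strongest were in Nbea, a neuronal membrane traffic gene (6.05 and 6.17 in the authors' deposited tables, chr3:56129301-56129400), Plxnb1, a semaphorin receptor (5.84 and 6.08), and Cx3cr1, the fractalkine receptor known from microglia (5.79 and 6.00). Others were in Nr2f2 (5.90 and 5.42) and Lhx9 (5.40 and 5.41), both transcription factors. Among clusters listed for all 3 proteins, 8.50% were antisense. Which transcript carries these clusters was not tested.

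Histone genes, a group chosen after the values were seen, held 35 Puf60-only clusters in 29 genes. Of these 1 was enriched for both isoforms and 32 for neither, where all 6433 clusters had 62.4% and 30.5%. The medians were -0.62 with exon 5 and -1.33 without in the authors' deposited tables. Most histone genes have no introns and their mRNAs are not spliced. Whether this, or the length of the genes, bears on the folds was not tested. As values only, 2 Puf60-only clusters overlapped a miRNA hairpin on its strand, those of Mir652 and Mir1982.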
